A study of Homo sapiens with 12 samples.

Results

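RNA of vehicle-treated HT29 cells, an established line grown from a human colon carcinoma, was sequenced. The libraries described are the 3 that the labels call vehicle, of 12 HT29 libraries in all, and no measured value entered their choice. The study asked whether the herb Aconitum carmichaeli Debeaux (ACD) acts more on the brain or on the intestine, and HT29 cells stood for the intestine. Cells were kept for 24 h with vehicle (PBS with 2% DMSO) or with a water extract of ACD at low dose (20 µg/mL), at medium dose (100 µg/mL) or, as the high dose, at 500 µg/mL, with 3 libraries in each group. A longer treatment note kept with the libraries names another herb, Poria cocos, and the groups follow the titles and the treatment field. By the methods, the extract was dissolved in the same solution, which was added to the culture medium, so the 2% is the DMSO of the added solution and not of the medium. No library of cells without DMSO was analysed here, so the state of the line and a response to its vehicle cannot be told apart. The model is also 1 tumour line grown on its own, without the other cells of a colon, and nothing in the labels says that the 3 libraries came from separate cultures.

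The lining of the colon is renewed from stem cells at the crypt base, which depend on Wnt signalling, and its cells become absorptive colonocytes or secretory cells (goblet, enteroendocrine and tuft cells). Transcription factors such as HNF4A, CDX2 and the HOX genes hold the intestinal identity of these cells. The same epithelium meets foreign compounds from food and drugs, which cytochromes P450 and other phase I enzymes oxidise or reduce, phase II enzymes couple to sugars, sulphate or glutathione, and transporters carry out of the cell, under the control of nuclear receptors and the aryl hydrocarbon receptor. Levels are given as CPM (the counts of a gene divided by the total of its library and scaled to a common size) and, wherever genes are set against each other, as TPM, for which the counts are divided by the length of the joined exons of the gene. A gene is called present where every vehicle library held at least 1 CPM, at trace level where at least 1 count was found but that level was not reached, and without a count where all 3 libraries were at 0.

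The vehicle libraries held 18260755, 31811972 and 22075257 expected counts. A count of 0 allows up to 3 counts, which is 0.164, 0.0943 and 0.136 CPM in the 3 libraries, and this limit covers counting error only. The biological coefficient of variation of edgeR was 8.04% in the vehicle libraries alone, against 11.2% in all 12 libraries. Of 9446 genes with a mean of at least 10 CPM, the highest library was 1.13 times the lowest at the median, and 114 genes (1.21%) passed a ratio of 1.5. Vehicle 1 stood slightly apart from the other libraries. The SD of the log2 ratio between libraries was 0.19 for vehicle 1 against vehicle 2, 0.23 for vehicle 1 against vehicle 3 and 0.10 for vehicle 2 against vehicle 3. Vehicle 1 leaned to short genes, with a median log2 ratio to the mean of the other libraries of 0.11 in the lowest quartile of joined exon length and −0.19 in the highest. Each pair of vehicle libraries differed by more than counting noise, so none was a library deposited again, which does not show that they came from separate cultures. The highest ratio belonged to CXCR5, with 32.8 CPM in vehicle 1 and no count in the other libraries, a ratio of at least 348 against the floor of 3 counts. The next ratios were 4.49 for RGPD5, 4.39 for ENSG00000270149, 3.32 for MTND4P12 and 3.25 for ATP6V1G2-DDX39B. RGPD5 and MTND4P12 have near copies elsewhere in the genome, and ATP6V1G2-DDX39B is a read-through gene that shares exons with its neighbours, so their counts are uncertain.

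RNA of mitochondrial genes, keratins, ferritin and the translation machinery led the counts of vehicle cells. Of the 15 genes with the most counts, MT-CO1, MT-CO3, MT-ND4, MT-CO2, MT-CYB, MT-ATP6, MT-ND1, MT-ND2 and MT-ND5 are mitochondrially encoded subunits of the respiratory chain or ATP synthase, and MT-RNR2 is a mitochondrial ribosomal RNA. MT-CO1, a subunit of cytochrome c oxidase, was the highest with 17622, 16733 and 17818 CPM. The nuclear genes among the 15 were EEF1A1, a translation elongation factor, KRT8 and KRT18, the paired keratins of simple epithelia, FTH1, the heavy chain of the iron store ferritin, and ACTB, cytoplasmic actin. KRT8 held 7284.5, 6594 and 5811 CPM and KRT18 held 3660, 3508 and 3525 CPM, so that the spread between libraries was wider for KRT8. The 10 genes with the most counts took 10.6%, 9.32% and 9.77% of the counts of the 3 libraries, and 838 ± 53.1 genes (SD, n = 3) made up 50% of the counts. The 13 mitochondrial mRNAs took 8.27 ± 0.66% and the 89 ribosomal protein genes 6.09 ± 0.71%. Both shares were highest in vehicle 1.

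**Figure D1:**
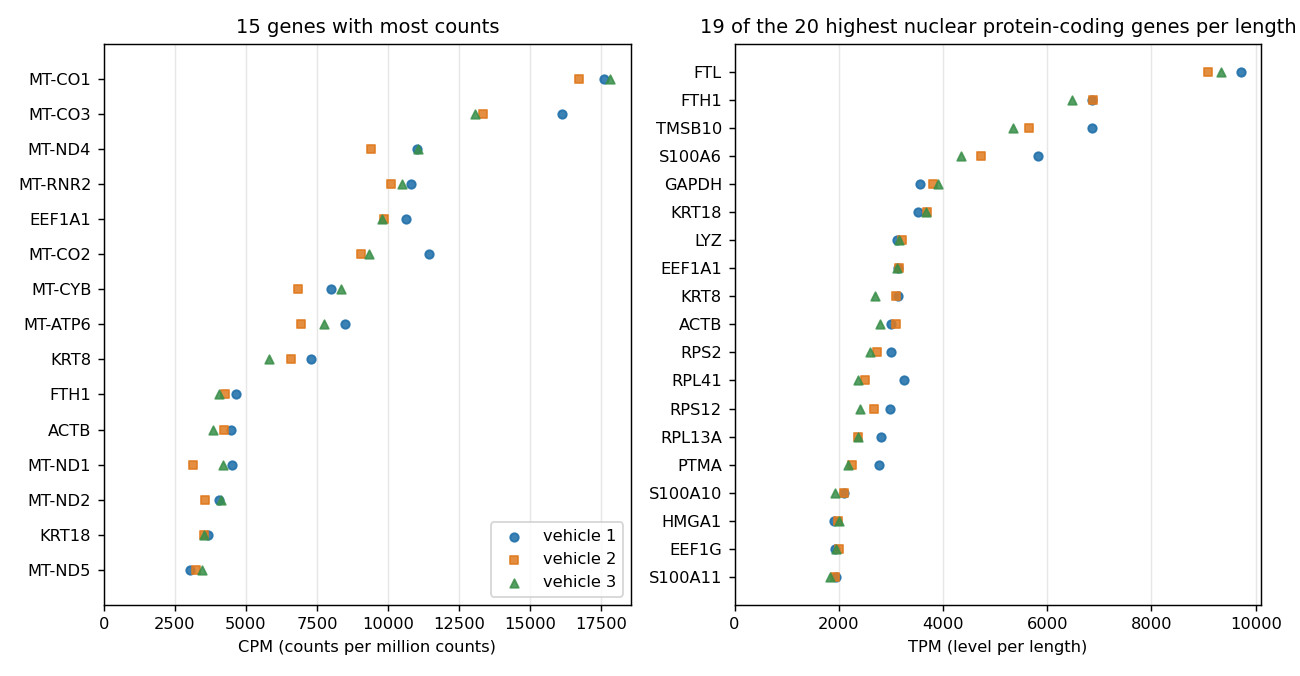
Left, CPM of the 15 genes with the most counts, and right, TPM of 19 of the 20 nuclear protein-coding genes with the highest level per length, with 1 symbol for each of the 3 vehicle libraries. MT-CO1 leads the counts at 16733 to 17818 CPM, and FTL leads per length of joined exons at 9078 to 9717 TPM, a lead that passes to FTH1 or KRT8 with other lengths.

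Per length of joined exons, the iron store proteins were the highest nuclear protein-coding genes. FTL, the light chain of ferritin, stood at 9717, 9078 and 9329 TPM, above FTH1 at 6856, 6887 and 6481 TPM in all 3 libraries. They were followed by TMSB10, a peptide that binds actin monomers, at 5952 ± 801 TPM and S100A6, a calcium-binding protein, at 4966 ± 768 TPM, both highest in vehicle 1. The glycolytic enzyme GAPDH (3758 ± 172 TPM), KRT18 (3631 ± 89 TPM), LYZ (3167 ± 46.4 TPM), EEF1A1 (3135 ± 19.3 TPM), KRT8 (2976 ± 236 TPM) and ACTB (2958 ± 155 TPM) came next. The other genes among the 20 included RPS2, RPL41, RPS12 and RPL13A, which encode ribosomal proteins, PTMA, a small acidic nuclear protein, S100A10 and S100A11, HMGA1, a chromatin protein of proliferating cells, and EEF1G, an elongation factor, at 1904 to 2776 TPM. LYZ, the antibacterial enzyme lysozyme, lies on chromosome 12 from 69348381 to 69354234 (GRCh38) and ranked 32 of all genes by CPM, with 1821, 1719 and 1700 CPM. The order depends on the length that stands for a gene: 15 of these 20 genes were also among the 20 highest with the longest transcript as length, and 12 with the median transcript. The lead turned as well. FTH1 (8660 TPM) stood above FTL (7230 TPM) with the longest transcript, and KRT8 (6421 TPM) led FTH1 (5603 TPM) with the median transcript, where FTL was at 3062 TPM. EEF1A1, FTH1, KRT8, KRT18, PTMA and the ribosomal protein genes have many processed pseudogenes, between which the counting could split reads.

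Of 60675 genes in the table, 12842 were present, 12835 were at trace level and 34998 were without a count in vehicle cells. Among 19586 protein-coding genes, 11333 (57.9%) were present, 4023 were at trace level and 4230 were without a count. Among 14078 lncRNA genes, 921 (6.54%) were present. The median of the present genes was 28.8 CPM. At least 100 CPM was reached by 1997 genes and at least 1000 CPM by 68 genes, in all 3 libraries. The 28 lists of genes described next are read against the 57.9% of protein-coding genes that were present and against their median of 6.39 CPM.

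**Figure D2:**
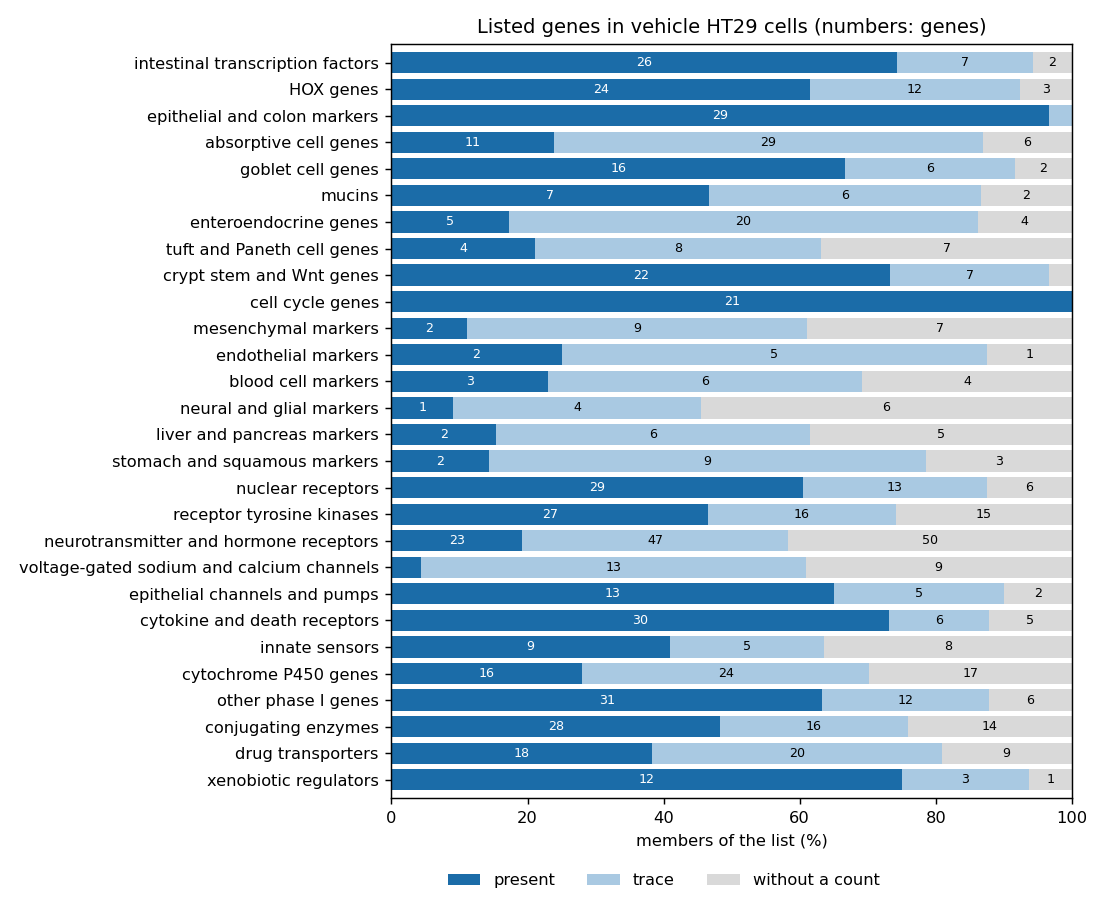
Share of the matched members of each of 28 gene lists that were present, at trace level or without a count in the 3 vehicle libraries, with the number of genes written in the bars. All 21 cell cycle genes and 29 of 30 epithelial and colon markers are present, against 1 of 23 voltage-gated sodium and calcium channels.

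The promoters of these classes differed in letters. RefSeq promoter windows of GRCh38.p14 (250 bases before to 50 after the start of the gene) were matched to 15224 protein-coding genes. The letters TATAAA, the core of a TATA box, stood on the strand of the gene in 3.53% of the windows of present genes, 9.27% of those of genes at trace level and 14.9% of those of genes without a count, against 6.90% of all windows. The 500 genes with the highest TPM held it in 6.80%, more often than present genes as a whole. The median number of CpG pairs per window was 27 for present genes, 13 at trace level and 6 for genes without a count, and it was also 27 for the 500 highest. The letters GGGCGG on either strand, a core of binding sites of the SP family, were found in 71.2%, 48.7% and 33.5% of the windows of the 3 classes and in 59.4% of all. CCAAT on either strand was found in 37.3%, 33.3% and 37.8%, and in 36.7% of all. A match of letters is a description and not a bound site. The windows of 2 genes with much RNA are shown because they differ widely in CpG pairs, FTL at chr19:48965059-48965358 on the plus strand with 23 CpG pairs, and KRT20 at chr17:40885193-40885492 on the minus strand with 2. Neither holds TATAAA, which would be set in capitals.
FTL: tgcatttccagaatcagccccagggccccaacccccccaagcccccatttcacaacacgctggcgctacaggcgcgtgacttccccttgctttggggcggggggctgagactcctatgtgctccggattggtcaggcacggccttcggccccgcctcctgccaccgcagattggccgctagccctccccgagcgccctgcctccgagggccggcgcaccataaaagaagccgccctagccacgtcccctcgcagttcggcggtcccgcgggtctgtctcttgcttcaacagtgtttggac
KRT20: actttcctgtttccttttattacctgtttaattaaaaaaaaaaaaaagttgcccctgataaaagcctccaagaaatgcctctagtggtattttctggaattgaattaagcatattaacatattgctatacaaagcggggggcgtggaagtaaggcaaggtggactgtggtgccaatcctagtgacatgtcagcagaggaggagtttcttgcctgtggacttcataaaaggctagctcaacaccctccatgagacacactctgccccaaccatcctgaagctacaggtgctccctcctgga

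The vehicle cells carried the RNA of a simple epithelium of intestinal type, as their label says. Of 30 epithelial and colon markers, 29 were present, with a median of 128 CPM. Per length, KRT18 and KRT8 led, followed by LGALS4, a galectin of the gut epithelium, at 852 TPM, EPCAM, a surface adhesion molecule of epithelia, at 707 TPM and the keratin KRT19 at 666 TPM. EPCAM held 575, 529 and 544 CPM. KRT20, the keratin of intestinal lining cells, held 238, 243 and 254 CPM, and CDH1, the adherens junction protein E-cadherin, held 386, 453 and 464 CPM. VIL1, the microvillus protein villin, was at 167, 180 and 184 CPM. Some markers of the colon were far lower, among them CDH17, an intestinal cadherin, at 5.64 ± 1.11 CPM, GPA33, a surface antigen of the intestine, at 4.76 to 5.07 CPM and CEACAM5, the carcinoembryonic antigen, at 5.48 to 6.86 CPM. PIGR, which carries immunoglobulin A across the epithelium, was just under the level called present, with 1.15, 0.912 and 1.04 CPM. KRT7, a keratin of other ductal epithelia, was just over it at 1.49 to 2.25 CPM.

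**Figure D3:**
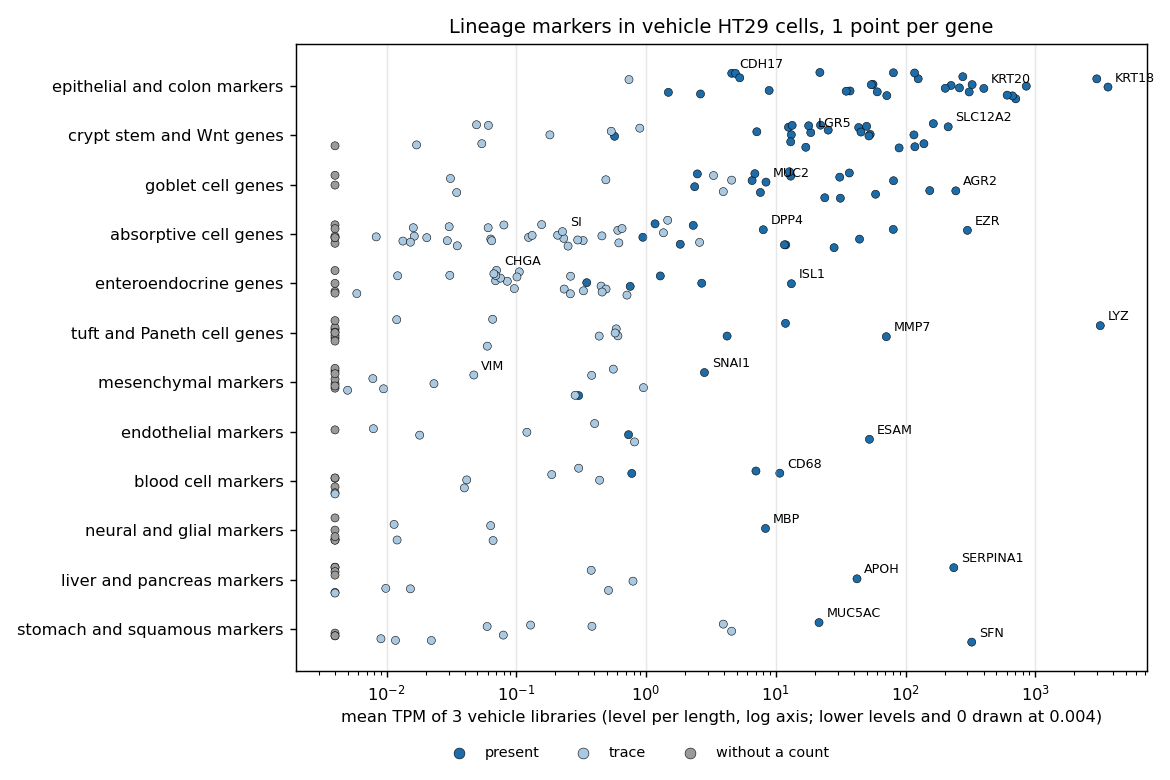
Mean TPM over 3 vehicle libraries on a log axis, with 1 point for each gene of 12 lists of lineage markers, coloured by whether the gene was present, at trace level or without a count. Epithelial and crypt genes lie mostly above 1 TPM, and the lists of other tissues hold 1 to 3 present genes each.

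Of 35 transcription factors of the intestine, 26 were present, with a median of 18.2 CPM. KLF5, a factor of dividing crypt cells, was the highest per length (387 TPM) at 441, 455 and 469 CPM, above CREB3L1 (154 TPM) and EHF (135 TPM), whose ranges overlapped. HNF4A, a nuclear receptor that drives genes of the differentiated gut and liver, held 85.4, 99.8 and 103 CPM. The related receptor HNF4G and the factors GATA6, FOXA1 and SOX9 were present. The caudal factors that set intestinal identity were low. CDX2 held 4.98, 5.12 and 5.25 CPM and CDX1 held 1.53, 1.26 and 0.951 CPM. GATA4 and the macrophage and lens factor MAF had no count in any library. ISX, a factor of intestinal vitamin A handling, had a mean of 0.0589 CPM, under the floor of 3 counts in each library.

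The HOX genes, which record the position of a tissue along the body axis, were present as whole clusters or hardly at all. All 11 genes of the HOXA cluster and 9 of 10 of the HOXB cluster were present, against 3 of 9 of HOXC and 1 of 9 of HOXD. The summed level of a cluster was 374 to 382 CPM for HOXA and 705 to 732 CPM for HOXB, and it was 18.3 to 19.3 CPM for HOXC and 1.82 to 2.52 CPM for HOXD. HOXB9 was the highest per length (360 ± 20.3 TPM), above HOXB5 (130 TPM) and HOXB6 (113 TPM), whose ranges overlapped. HOXB9 held 294, 300 and 298 CPM. In HOXA the genes numbered 9 to 13 lay between 53.4 and 82.9 TPM and those numbered 1 to 7 between 5.83 and 32.1 TPM. HOXB1 was the member of HOXB that was not present, with a mean of 0.0453 CPM. Of the posterior genes of the other clusters, HOXD13 held 2.46, 1.70 and 2.04 CPM and HOXC13 held 1.26, 1.70 and 1.22 CPM, and both were present. HOXB13, the posterior gene of its cluster, was at 4.44 to 5.30 CPM. Genes of a cluster lie next to each other and share overlapping and antisense transcripts, and the sources used here do not name the strand setting of the counting, so single values in these clusters are uncertain.

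**Figure D4:**
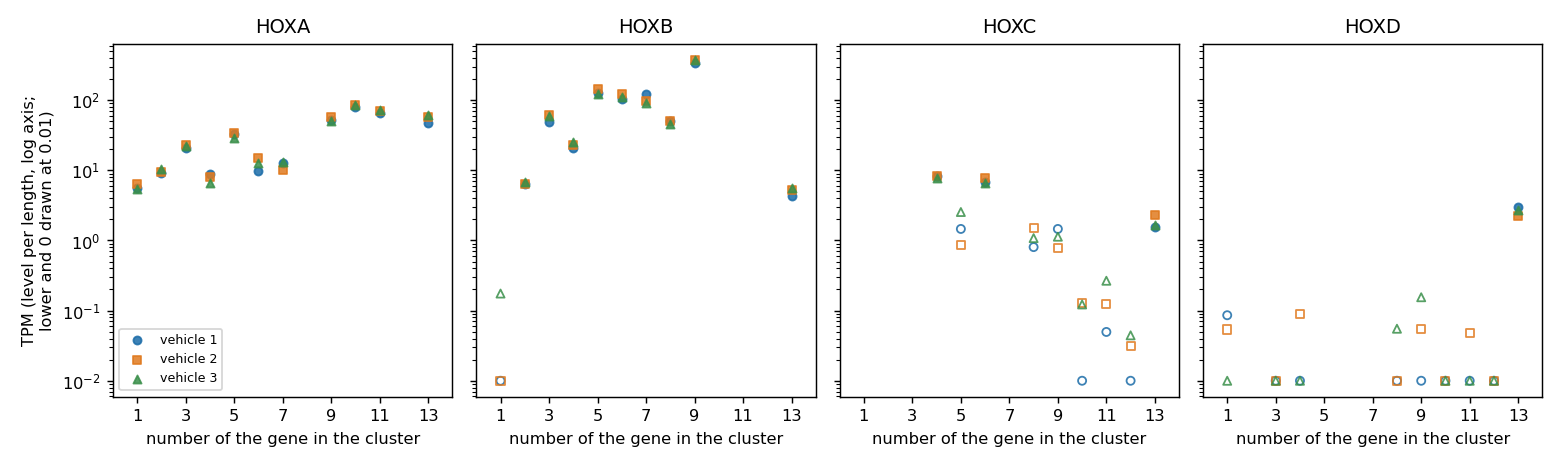
TPM of each HOX gene (log axis, lower levels and 0 drawn at 0.01) against its number in the cluster, with 1 symbol per vehicle library, filled where the gene was present. HOXA and HOXB are filled along their length except HOXB1, and HOXC and HOXD are mostly open symbols.

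The genes of mature absorptive cells were largely missing. Of 46 such genes, 11 were present (23.9%), with a median of 0.237 CPM. The list also holds genes of the small intestine, such as SLC15A1, so its share does not describe colonocytes alone. In a bulk sample, fewer cells of a type and less RNA per cell cannot be told apart. EZR, which links microvilli to actin, was the highest per length (300 TPM), followed by PLS1, a bundler of microvillus actin (80.4 TPM), and USH1C, a scaffold between microvilli (44.2 TPM). EZR held 309, 328 and 306 CPM, PLS1 held 122, 138 and 147 CPM, and USH1C held 75.2, 71.4 and 61.5 CPM. Of other structural genes of the brush border, MYO1A was just under the level called present at 0.821, 0.912 and 1.04 CPM, and CDHR2 had a mean of 0.0288 CPM. DPP4, a peptidase of the brush border, held 30.5, 39.7 and 40.0 CPM, and SLC5A1, the sodium and glucose carrier, held 17.0, 19.7 and 19.9 CPM. FABP1 (a fatty acid binding protein), CA2 (a carbonic anhydrase), CLCA4, CDHR5, MYO7B and ESPN were the other members present. ALPI (intestinal alkaline phosphatase), SLC26A3 (the chloride exchanger of the colon), AQP8 (a water channel), APOB and APOA4 (apolipoproteins) and OTOP2 (a proton channel) had no count in any library. SI, sucrase-isomaltase, had a mean of 0.440 CPM, and CA1, a carbonic anhydrase of colonocytes, a mean of 0.0105 CPM.

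Goblet cell genes were present to a larger extent than absorptive genes, at 16 of 24 (66.7%) with a median of 8.35 CPM. This was near the 57.9% of all protein-coding genes that were present and their median of 6.39 CPM. AGR2, a disulphide isomerase that folds mucins, was the highest per length (244 TPM) at 223, 213 and 211 CPM, followed by CREB3L1, a factor of the secretory pathway, at 198, 193 and 201 CPM and FOXA1 at 109, 114 and 118 CPM. The lineage factors ATOH1 (4.93, 4.12 and 4.89 CPM) and SPDEF (24.7, 21.8 and 21.3 CPM) were present, as were the mucin MUC2 (27.7, 36.2 and 37.6 CPM) and the trefoil peptide TFF3 (10.7, 8.83 and 8.02 CPM). CLCA1 and ITLN1, both secreted by mature goblet cells, had no count, and ZG16 had a mean of 0.0365 CPM. Of 15 mucin genes, 7 were present. MUC13, a membrane mucin of the gut, was the highest per length (122 TPM), far above MUC20 (26.8 TPM) and MUC5AC (21.5 TPM), whose ranges overlapped. MUC5AC, the secreted mucin of the stomach surface, held 96.4, 126 and 136 CPM. It is a long gene and was lowest in vehicle 1, the library that leaned to short genes, and the part of that lean in its spread was not tested. MUC1 and MUC4 were at trace level, and MUC7 and MUC21 had no count.

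Hormone cells, tuft cells and Paneth cells were represented by few genes. Of 29 enteroendocrine genes, 5 were present, with a median of 0.0663 CPM. ISL1, a factor of endocrine cells, held 11.2, 12.6 and 11.7 CPM and led per length (13.2 TPM), ahead of the lineage factors NEUROG3 (2.68 TPM) and PAX4 (1.29 TPM). NEUROG3 held 1.59, 1.13 and 1.31 CPM. The hormones themselves were not present. PYY, INSL5 and MLN had no count, and CHGA, the core protein of hormone granules, had a mean of 0.0663 CPM. Of 19 tuft and Paneth cell genes, 4 were present: LYZ, MMP7, ALOX5 and PTGS1. MMP7, the protease matrilysin, held 54.9, 51.1 and 52.2 CPM, and ALOX5, a lipoxygenase, stood between 13.8 and 14.6 CPM. LYZ and MMP7 were present without the defensins DEFA5 and DEFA6 and the lectin REG3A of Paneth cells, which had no count in any library. POU2F3, the factor of tuft cells, was just under the level called present, with 1.20, 0.974 and 0.634 CPM.

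Genes of dividing crypt cells were largely present. Of 30 crypt stem and Wnt genes, 22 were present, with a median of 34.4 CPM. Per length SLC12A2, a sodium, potassium and chloride carrier of crypt cells, led with 213 TPM, ahead of the surface receptor CD44 (164 TPM) and RNF43, which removes Wnt receptors from the membrane (138 TPM). The ranges of CD44 and RNF43 overlapped. LGR5, the receptor that marks stem cells at the crypt base, held 29.0, 32.3 and 31.7 CPM, and AXIN2, a gene that Wnt signalling switches on, held 67.4, 75.6 and 73.4 CPM. OLFM4, another marker of crypt base cells, had 1 count in vehicle 3 and none in the other libraries, and LEF1, a partner of beta-catenin, had a mean of 0.106 CPM. The related factors TCF7L2 (70.2, 73.4 and 72.0 CPM) and TCF7 (70.7, 75.7 and 67.5 CPM) were present. All 21 cell cycle genes were present, with a median of 134 CPM. PCNA, the sliding clamp of DNA replication, was the highest per length (515 TPM), above the mitotic cyclin CCNB1 (238 TPM) and the topoisomerase TOP2A (236 TPM), whose ranges overlapped. MKI67, the antigen Ki-67, held 537.5, 724 and 720 CPM, again lowest in vehicle 1, and it too is a long gene.

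Markers of other tissues were mostly at trace level or without a count, with a few exceptions. Of 18 mesenchymal markers, SNAI1 and FN1 were present, at no more than 1.75 and 1.82 CPM in any library. VIM, vimentin, had 2, 4 and 0 counts, and CDH2, TWIST1, SPARC, COL1A2 and DCN had none. Of 8 endothelial markers, ESAM, a junction molecule, was present at 51.9, 48.9 and 46.8 CPM and PECAM1 at 1.41 to 2.27 CPM, whereas KDR had no count and CDH5 and VWF had means of 0.0365 and 0.0256 CPM. Of 13 blood cell markers, CD68, CD14 and ITGAM were present, none above 8.01 CPM, and the leukocyte antigen PTPRC had a mean of 0.0105 CPM. The summed level of the whole list was 12.6 to 13.95 CPM. Of 11 neural and glial markers, MBP alone was present, at 43.6, 51.6 and 53.8 CPM. MBP, named for myelin, has further transcripts that other cell types use. Of 13 liver and pancreas markers, SERPINA1, the protease inhibitor alpha-1-antitrypsin, stood at 389, 363 and 356 CPM and APOH, a plasma glycoprotein, at 18.2, 17.5 and 18.2 CPM, while ALB, the most abundant protein of plasma, had a mean of 0.0105 CPM and FGB, AFP and PNLIP had no count. Of 14 stomach and squamous markers, SFN, a 14-3-3 protein of epithelia, was present at 157, 129 and 121 CPM beside MUC5AC, and ATP4A, GKN1 and GKN2 of the stomach had no count.

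Nuclear receptors are transcription factors that bind hormones, vitamins and lipids. Of 48 such receptors, 29 were present, with a median of 7.03 CPM. NR2F6 (118 TPM), ESRRA (78.1 TPM) and RARG (71.3 TPM) were the highest per length, and their ranges did not overlap. NR2F6 is an orphan receptor, ESRRA a regulator of mitochondrial genes and RARG a retinoic acid receptor. PPARG, a fatty acid sensor of colon epithelium, held 83.5, 85.6 and 89.3 CPM, VDR, the vitamin D receptor, held 43.7, 44.2 and 43.4 CPM, and RXRA, the partner of both, held 171, 193 and 185 CPM. The glucocorticoid receptor NR3C1, on chromosome 5 from 143277931 to 143435512, had 0, 1 and 0 counts. The oestrogen receptor ESR1 and the progesterone receptor PGR had means of 0.0334 and 0.0151 CPM, below the floor of 3 counts. The mineralocorticoid receptor NR3C2 was present, at 5.15, 5.56 and 5.75 CPM. Of the sensors of foreign compounds and bile acids, NR1I2 (PXR) had a mean of 0.192 CPM and NR1H4 (FXR) of 0.434 CPM, and NR1I3 (CAR) had no count.

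Of 58 receptor tyrosine kinases, which bind growth factors at the cell surface, 27 were present, with a median of 0.55 CPM. MET, the receptor of hepatocyte growth factor, was the highest per length (189 TPM) at 379, 448 and 476 CPM, above the ephrin receptors EPHA2 (133 TPM) and EPHB4 (98.9 TPM). Of the EGF receptor family, EGFR (101, 139 and 148 CPM), ERBB2 (147, 161 and 157 CPM) and ERBB3 (204, 225 and 226 CPM) were present and ERBB4 had no count. FGFR4, FGFR2 and FGFR3 were present, and FGFR1 had a mean of 0.0904 CPM. KIT, PDGFRA, FLT3, RET and ALK, kinases of other tissues, had no count in any library. Vehicle 1 was lowest for MET, EGFR, ERBB2 and ERBB3, all of which have joined exons longer than the median of the genes compared for spread.

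Receptors of neurotransmitters and hormones, of interest because alkaloids of ACD act on nerve and muscle, were sparse. Of 120 such receptors, 23 were present (19.2%) and 50 were without a count, with a median of 0.0183 CPM. NTSR1, the neurotensin receptor, F2RL1 and F2R, receptors of proteases, were the highest per length at 104, 99.4 and 98.9 TPM, and their ranges overlapped. NTSR1 held 133, 145 and 145 CPM. FFAR4, a receptor of long-chain fatty acids, held 101, 97.5 and 89.8 CPM, and VIPR1, the receptor of vasoactive intestinal peptide, held 52.2, 56.3 and 53.4 CPM. Of the muscarinic receptors, CHRM3 held 13.3, 14.6 and 16.3 CPM, CHRM1, CHRM4 and CHRM5 had means of 0.0709, 0.0105 and 0.143 CPM, and CHRM2 had no count. GUCY2C, the receptor of the gut peptide guanylin, had 5, 2 and 0 counts. Of 23 voltage-gated sodium and calcium channel genes, CACNA1D, a pore subunit of L-type calcium channels, was the member present, at 17.8, 22.7 and 24.6 CPM. CACNA1C, the cardiac form of the L-type channel, had no count, and the sodium channel SCN9A had a mean of 0.408 CPM. Of 48 intestinal proteins that the study lists as docked with compounds of ACD, 14 were present (29.2%), 24 were at trace level and 10 were without a count. All listed proteins were taken whatever their number of docked compounds, whereas the study calls dockable those with more than 10 interactions. The present members included EPCAM, the ribonucleotide reductase subunit RRM2 and the chloride channel CFTR (138, 167 and 179 CPM), and the members without a count included ACE, CHRM2, CACNA1C, HTR3A and NOS2. Of 364 matched genes of the intestinal network of the study, 167 (45.9%) were present, below the 57.9% of all protein-coding genes, and no test was made of this difference.

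Drug metabolism was represented by 28.1% of cytochrome P450 genes, 48.3% of conjugating enzymes and 63.3% of other phase I genes. Of all protein-coding genes, 57.9% were present. Of 57 cytochrome P450 genes, 16 were present, with a median of 0.0694 CPM. CYP51A1, an enzyme of cholesterol synthesis, was the highest per length (173 TPM), followed by CYP2S1 (61.1 TPM), CYP3A5 (25.6 TPM) and CYP1B1 (25.4 TPM), the ranges of CYP3A5 and CYP1B1 overlapping. CYP3A5, a drug-oxidising enzyme, held 79.7, 80.5 and 80.5 CPM and lies on chromosome 7 from 99648194 to 99679996. Its neighbour CYP3A4, the main drug oxidase of liver and small intestine, had 1, 0 and 0 counts, and CYP3A7, the fetal form, held 0.767, 0.566 and 0.362 CPM. Reads of these similar genes can be split by the counting. CYP1A1, which the aryl hydrocarbon receptor switches on, had 2, 13 and 8 counts (0.110, 0.409 and 0.362 CPM), whereas CYP1B1, another gene of that receptor, held 43.7, 49.3 and 53.4 CPM. CYP1A2 and CYP7A1 of the liver had no count, and CYP2E1 had a mean of 0.225 CPM.

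The RefSeq promoter windows of the CYP3A genes are shown because RNA of CYP3A5 was plentiful while that of its near copies was close to absent. All are on the minus strand of GRCh38.p14, CYP3A5 at chr7:99679947-99680246, CYP3A4 at chr7:99784135-99784434 and CYP3A7 at chr7:99735147-99735446. Capitals mark TATAAA.
CYP3A5: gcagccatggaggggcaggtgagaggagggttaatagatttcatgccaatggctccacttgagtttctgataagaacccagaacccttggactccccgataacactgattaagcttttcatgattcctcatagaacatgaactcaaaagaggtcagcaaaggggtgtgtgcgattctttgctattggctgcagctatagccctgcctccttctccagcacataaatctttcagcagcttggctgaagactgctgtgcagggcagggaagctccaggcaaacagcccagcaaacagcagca
CYP3A4: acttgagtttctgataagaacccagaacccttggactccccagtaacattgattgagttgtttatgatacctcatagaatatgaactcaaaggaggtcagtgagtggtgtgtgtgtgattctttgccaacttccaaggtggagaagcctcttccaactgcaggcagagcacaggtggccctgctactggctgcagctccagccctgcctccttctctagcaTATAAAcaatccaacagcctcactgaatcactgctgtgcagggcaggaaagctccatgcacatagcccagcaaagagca
CYP3A7: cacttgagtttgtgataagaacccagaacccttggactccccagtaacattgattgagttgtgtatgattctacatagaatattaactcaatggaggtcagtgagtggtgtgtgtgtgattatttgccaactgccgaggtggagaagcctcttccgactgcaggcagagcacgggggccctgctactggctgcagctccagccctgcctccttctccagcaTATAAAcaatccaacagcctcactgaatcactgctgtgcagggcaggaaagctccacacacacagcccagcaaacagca
The window of CYP3A5 matched that of CYP3A4 at 207 of 241 aligned bases (85.9%) and that of CYP3A7 at 204 of 242 (84.3%), and CYP3A4 and CYP3A7 matched at 282 of 299 (94.3%). TATAAA began 29 bases before the start in CYP3A4 and in CYP3A7 and was not found in the window of CYP3A5, and these letters are in 6.90% of all windows. CYP3A5 had 2 CpG pairs, CYP3A4 had 0 and CYP3A7 had 3, so all lay far under the median of 27 of present genes.

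**Figure D5:**
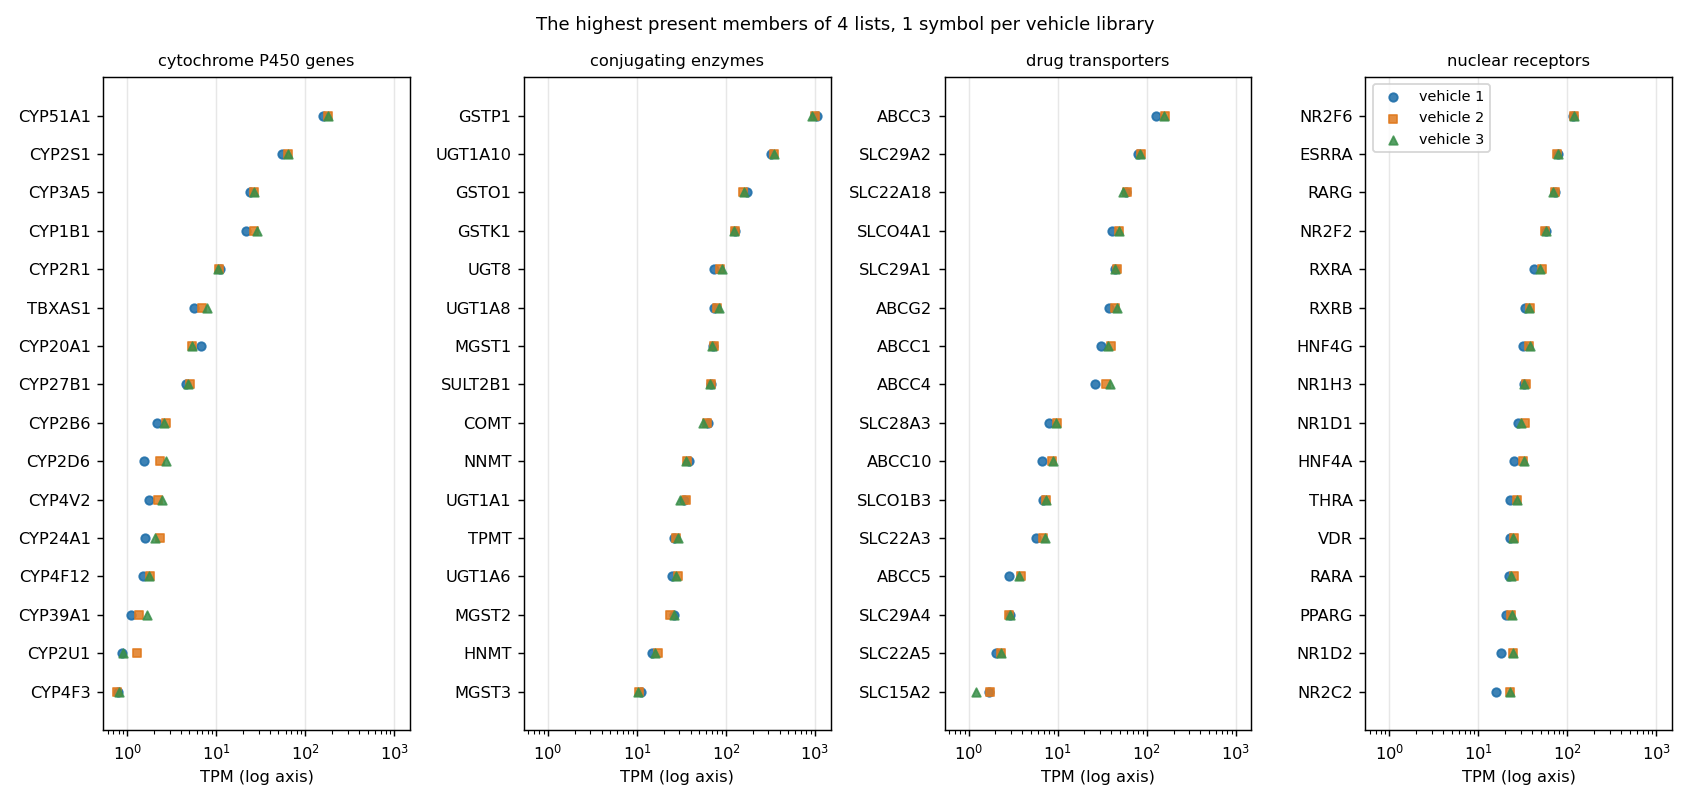
TPM on a log axis of the 16 highest present members of the lists of cytochromes P450, conjugating enzymes, drug transporters and nuclear receptors, with 1 symbol for each vehicle library. GSTP1 leads at 917 to 1047 TPM, and the libraries lie close together for nearly every gene.

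Of 49 other phase I genes, 31 were present, with a median of 6.86 CPM. ALDH1A1, an aldehyde dehydrogenase that makes retinoic acid, was the highest per length (824 TPM) at 738, 723 and 783 CPM, above the quinone reductase NQO1 (540 TPM) at 533, 496 and 512 CPM and the aldo-keto reductase AKR1B10 (189 TPM) at 111, 105 and 106.5 CPM. The carboxylesterase CES2 of the intestine held 45.6, 47.8 and 44.7 CPM, and CES1 of the liver had no count. Of 58 conjugating enzymes, 28 were present, with a median of 1.03 CPM. GSTP1, a glutathione transferase, led per length (984 ± 65.4 TPM), followed by UGT1A10 (339 ± 14.2 TPM), a glucuronosyltransferase of the gut, and GSTO1 (163 TPM). GSTP1 held 624, 540 and 505 CPM, and UGT1A10 held 344, 340 and 343 CPM. The UGT1A genes share their last exons, so the division of reads among UGT1A10, UGT1A8, UGT1A1 and UGT1A6 rests on the counting. GSTM1 and SULT1E1 had no count, and GSTA1 had a mean of 0.0516 CPM. The vehicle libraries ranked differently for the near copies SULT1A3 (8.33, 1.83 and 3.40 CPM) and SULT1A4 (2.20, 4.82 and 3.41 CPM), which cannot be told apart by most reads.

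Of 47 drug transporters, 18 were present, with a median of 0.511 CPM. ABCC3, an export pump of the basolateral membrane, was the highest per length (149 TPM) at 415, 479 and 472.5 CPM, above the nucleoside carrier SLC29A2 (84.3 TPM) and the organic cation carrier SLC22A18 (57.4 TPM). ABCG2, an apical export pump, held 72.0, 76.3 and 82.1 CPM. The other apical pumps of the gut were just under the level called present, with 0.821, 0.786 and 0.997 CPM for ABCB1 (P-glycoprotein) and 0.438, 1.04 and 0.815 CPM for ABCC2. SLC15A1, the peptide carrier of the small intestine, had a mean of 0.0210 CPM. Of 16 regulators of the response to foreign compounds, 12 were present, with a median of 43.8 CPM. KEAP1, the sensor that holds back NFE2L2, led per length (52.6 TPM), followed by RXRA (47.5 TPM) and TIPARP (43.2 TPM), with overlapping ranges. The aryl hydrocarbon receptor AHR held 99.2, 110 and 118 CPM, its partner ARNT 26.5, 29.4 and 28.4 CPM, and NFE2L2 (NRF2), the factor of the oxidative stress response, 125, 121 and 127 CPM. The sensors AHR and NFE2L2 were thus present together, and PXR, CAR and the glucocorticoid receptor were not.

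The vehicle state was then set against each dose, to see which of the listed genes differed from it, and all 3 comparisons share the same vehicle libraries. Of the 885 listed genes, 479 passed the filter on low counts and were tested within a fit of all genes. At the high dose 44 of them (9.19%) were called by edgeR's quasi-likelihood test at a Benjamini-Hochberg adjusted p below 0.05 with more than 1.5-fold change, where 2.93% of all 15374 genes tested were called. They were 28 genes higher than vehicle, against 1.26% of all genes, and 16 lower, against 1.68%. At the medium dose 14 (2.92%) were called, against 0.676% of all genes, and at the low dose 5 (1.04%), against 0.111%. All of them were higher than vehicle, where 0.384% of all genes were called higher and 0.293% lower with the medium dose, and 0.065% and 0.0455% with the low dose. The lists were chosen with results of these data known, so these shares are no evidence of a preference for them. The median log2 fold change of the listed genes was −0.02, −0.01 and 0.02 from the high to the low dose, and over all genes tested it was 0.01, −0.01 and 0.00. High-dose replicate 2 stood apart from the other high-dose libraries. Without it, 66 listed genes were called at the high dose and 24 at the medium dose, and a fit of vehicle with the high dose only called 20. Mitochondrial ribosomal RNA took 11.3% to 12.5% of the counts at the high dose and 1.14% to 1.22% in vehicle, and its part in these results was not tested.

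The listed genes called at the low dose were ALDH1A3, CYP1B1, TIPARP, CYP1A1 and PIGR. They were part of 17 genes called among all 15374 tested, 10 higher and 7 lower than vehicle. CYP1B1 held 158, 105 and 110 CPM at the low dose, which is 1.34 higher on the log2 scale (SE 0.15, adjusted p = 0.0027 by edgeR's quasi-likelihood test), and no library overlapped the vehicle libraries. ALDH1A3, an aldehyde dehydrogenase, rose from 17.6, 19.6 and 19.8 CPM to 44.02, 34.3 and 38.4 CPM, which is 1.02 on the log2 scale (SE 0.10, adjusted p = 0.00177). PIGR rose from the edge of presence to 2.55, 2.86 and 3.17 CPM (log2 fold change 1.46, adjusted p = 0.0038), a call lost without vehicle replicate 2. PIGR was also called at the medium dose (log2 fold change 1.61, adjusted p = 0.000644). At the high dose its log2 fold change was 0.47 with an adjusted p of 0.197, and the difference between the doses was not tested. Among the listed genes, the smallest p at both the medium and the high dose belonged to CYP1A1, ALDH1A3, CYP1B1, ALDH3A1 and TIPARP. All of these were higher than in vehicle. ALDH3A1, another aldehyde dehydrogenase, stood at 22.8, 22.3 and 21.3 CPM in vehicle, 52.4, 54.1 and 54.9 CPM at the medium dose and 69.0, 72.1 and 71.2 CPM at the high dose, without overlap.

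Genes that describe the lineage of the vehicle cells were called mostly at the high dose, as were genes in general. Of all 15374 genes tested, 451 were called at the high, 104 at the medium and 17 at the low dose. Of 30 intestinal factors tested, ATOH1 and CREB3L1 were lower at the high dose, where 1.68% of all genes were called lower. None of these factors was called by edgeR at the medium or low dose, where 0.676% and 0.111% of all genes were called. ATOH1 and CREB3L1 are also among 19 goblet cell genes tested. Of these, ATOH1, CREB3L1 and TFF3 were lower at the high dose, with a median log2 fold change of the list of −0.51. ATOH1 stood at 1.39, 1.63 and 2.10 CPM at the high dose (−1.28 on the log2 scale, SE 0.18, adjusted p = 0.00139 by edgeR), and no library overlapped vehicle. CREB3L1 stood at 113, 66.1 and 117 CPM (log2 fold change −0.86, adjusted p = 0.00622), and its call was lost in the fit of vehicle with the high dose only. The call of TFF3 held in 5 of 17 alternatives.

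Among the few secretory factors of the vehicle cells, NEUROG3 fell from 1.59, 1.13 and 1.31 CPM to 0.714, 0.502 and 0.472 CPM at the high dose (log2 fold change −1.10, adjusted p = 0.0226), and POU2F3 rose at the high dose to 1.51, 1.69 and 2.92 CPM (log2 fold change 1.302, adjusted p = 0.0196) and at the medium dose by 1.79 (log2, adjusted p = 0.00767). These genes stood close to the level called present, and at the high dose the call of NEUROG3 held in 13 of 17 alternatives and that of POU2F3 in 12, with both calls lost when vehicle replicate 3 or high-dose replicate 3 was left out and in the fit of vehicle with the high dose only. The call of NEUROG3 was also lost without vehicle replicate 1, and that of POU2F3 without vehicle replicate 2 and with the replicate block. Of 25 crypt genes tested, SLC12A2 (log2 fold change −0.62, adjusted p = 0.00235 by edgeR) and EPHB3, an ephrin receptor (−0.72, adjusted p = 0.00137), were lower at the high dose. Of all genes tested, 1.68% were called lower and 1.26% higher at that dose. Of 19 absorptive genes tested, SLC5A1 was lower (−0.79, adjusted p = 0.000288) and CEACAM7 higher (1.84, adjusted p = 0.000565) at the high dose. CEACAM7 was also higher at the medium dose (1.68, adjusted p = 0.00404). Of 27 HOX genes tested, HOXB8 was the member called at the high dose, at −0.66 (adjusted p = 0.0163). Of 30 epithelial and colon markers tested, CEACAM5 was the member called at that dose, at 0.70 (adjusted p = 0.0132). The calls of SLC12A2 and CEACAM5 held in 14 of 17 alternatives and that of HOXB8 in 13, and all 3 were lost in the fit of vehicle with the high dose only. SLC12A2 was also lost without vehicle replicate 3 or high-dose replicate 2, CEACAM5 without vehicle replicate 2 or high-dose replicate 1, and HOXB8 without vehicle replicate 1, vehicle replicate 2 or high-dose replicate 2. None of the 21 cell cycle genes was called at any dose by edgeR, where 2.93% of all genes were called at the high dose. HNF4A (adjusted p = 0.276), KRT20 (0.209), LYZ (0.508) and CYP3A5 (0.312) were not called at the high dose, with log2 fold changes of −0.25, 0.26, −0.17 and 0.13.

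No gene without a count in vehicle was present at any dose. Of the 12842 genes present in vehicle, 12344 were also present with the high, 12592 with the medium and 12624 with the low dose. Of those with a vehicle mean of at least 10 CPM, 3 were no longer present with the high, 1 with the medium and 1 with the low dose. They were ENSG00000176868, ENSG00000267815 and ENSG00000279364 with the high, EIF3CL with the medium and ENSG00000176868 with the low dose. Their vehicle libraries spread widely. The highest was 2.96, 2.12, 2.38 and, for EIF3CL, 1.81 times the lowest, against 1.13 at the median of genes at that level. In the other direction, 123 genes were present with the high dose but not in vehicle, 221 with the medium and 220 with the low dose. Presence was set by CPM over the library total. Protein-coding genes took 96.5% to 96.6% of that total in vehicle and 85.8% to 87.0% at the high dose. The part of this shift in the numbers of present genes was not tested.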

How the data were processed

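RNA of 12 HT29 libraries (3 vehicle, 3 at each of 3 doses) was measured by directional paired-end sequencing. The authors deposited 1 table of expected counts per gene (60675 gene IDs), and the submitters' processing notes name FastQC 0.11.9, Trim Galore 0.6.5, STAR 2.7.3a and RSEM 1.3.3. The genome was GRCh38 (the paper adds hg19 in brackets, which is another build), and the strand setting of the counting is not given in the sources used here. Vehicle libraries held 18260755, 31811972 and 22075257 counts.

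CPM were computed from the expected counts as deposited, over the library total and without TMM scaling. TPM used the joined exons of GENCODE release 44, which holds 93.2% of the IDs and 99.86% to 99.89% of the counts. A gene was present at 1 CPM in every vehicle library. Expected counts were rounded for edgeR 4.0.16 (filterByExpr, TMM, robust quasi-likelihood test on all 12 libraries) and DESeq2 1.42.0 in R 4.3.3. Folds are TMM-scaled. Other steps used Python 3.11.15 with pandas 2.3.3, numpy 2.4.6, scipy 1.17.1, biopython 1.88 and matplotlib 3.10.9. The test was run on simulated data first. Called genes passed an adjusted p of 0.05 (Benjamini-Hochberg) and a fold change of 1.5.

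Genes named were the 15 highest by CPM, the 20 highest nuclear protein-coding genes by TPM, the 3 highest of each list with its defining absent genes, called members (the 5 with the smallest p where more were called) and the 5 highest ratios between vehicle libraries. Some genes that this rule names are not reported here. Other genes were named after their values were seen. The lists and genes were chosen with earlier results of these data known, and 9 symbols had no match. Nothing in the labels says that the libraries of a group came from separate cultures, so p-values measure only the spread between these libraries. Alternatives were other levels for presence, other lengths, other normalization, filter and tool, a replicate block and leaving out each library.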

Additional observations from a re-analysis of the deposited data

How the results depend on the processing

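The counts of present genes moved with the level set for presence in the short lists. With 5 CPM in every library, 7 absorptive genes, 1 enteroendocrine gene, 0 mesenchymal, 1 endothelial and 1 blood cell marker, 14 neurotransmitter and hormone receptors and 8 cytochromes P450 were present. With 0.5 CPM, 7 tuft and Paneth cell genes, 5 mesenchymal markers and 4 stomach and squamous markers were, and with 1 TPM, 3 enteroendocrine genes, 1 mesenchymal, 1 endothelial and 4 stomach and squamous markers. Without mitochondrially encoded genes the 10, 100 and 1000 most abundant genes took 4.61%, 16.5% and 48.6% of the counts. Leaving out each vehicle library gave 12907 to 13031 present genes, 11 to 12 absorptive genes, 4 to 6 tuft and Paneth cell genes and 2 to 3 mesenchymal markers. At the high dose 34 to 66 listed genes were called without 1 library (66 without high-dose replicate 2), at the medium dose 12 to 24 (24 without the same library) and at the low dose 4 to 7. DESeq2 called 50, 18 and 5 listed genes at the high, medium and low dose. With edgeR on vehicle and the high dose alone 20 were called, and the cause was not tested. Of the values for single genes, none was reversed.

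Replicate numbers did not pair the libraries. Same-numbered libraries correlated at r = −0.527 to 0.394, over 0.1 in 5 of 18 pairs, and 1 of 12 libraries correlated best with its own number. With the replicate block, 37, 12 and 5 listed genes were called at the high, medium and low dose.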

Other observations

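Ion transport genes, which carry salt and water across the colon epithelium, were largely present in vehicle cells, at 13 of 20. Per length, NHERF1, a scaffold of apical transporters, led with 303 TPM at 243, 224 and 213 CPM, and SLC12A2 stood at 213 TPM. SCNN1A, a subunit of the epithelial sodium channel, held 205, 203 and 205 CPM, while SCNN1B and SCNN1G, the other subunits of that channel, had no count in any library.

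Of 41 cytokine and death receptors, 30 were present. TNFRSF21 (234 TPM), TNFRSF12A (176 TPM) and LTBR (73.8 TPM), all of the tumour necrosis factor receptor family, were the highest per length. CD40, LIFR and CXCR2 had no count. Of 22 innate sensors, 9 were present (40.9%), against 57.9% of all protein-coding genes. The highest per length were the DNA sensor CGAS (16.4 TPM), its adaptor STING1 (11.2 TPM) and CD14 (7.02 TPM). TLR4, the receptor of bacterial lipopolysaccharide, held 10.7, 11.8 and 12.9 CPM, while LY96, TLR2, TLR9 and AIM2 had no count.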
